A study of Mus musculus with 16 samples.

Results

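The 8 genes described here are 7 Krüppel-like factor genes (Klf2, Klf3, Klf4, Klf6, Klf7, Klf10 and Klf13) and Myc, taken by gene symbol from a count table of 13832 genes. The cells were RAW264.7, a macrophage-like mouse line from a tumour induced by Abelson murine leukaemia virus, and were left untreated or were given 100 ng/ml lipopolysaccharide (LPS) from E. coli for 15, 30, 45, 60, 75 or 90 min or for 16 h. From each lysate, ribosome-protected fragments (footprints) and total cytoplasmic RNA fragmented by alkali (input) were sequenced. Every time point had 1 library of each kind, 16 libraries in all, so the groups had no replicates, and the later time points had no untreated culture of their own: effects of LPS and of handling over time cannot be told apart. All 8 genes passed the filter on low values, 10 or more counts in 4 or more libraries of each material, as did 9529 genes in all.

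Krüppel-like factors are zinc finger proteins that bind CACCC and GC-rich elements in promoters and act as activators or repressors of transcription, depending on their amino-terminal domains. In monocytes and macrophages, KLF2 and KLF4 are known as restraints on inflammatory gene expression, whereas KLF6 is known as a partner of NF-kB at inflammatory genes. MYC binds E-box DNA as a dimer with MAX and drives genes of cell growth, ribosome production among them, and its mRNA and those of many Krüppel-like factors are short-lived.

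The promoters of 3 members are shown because they stand for the 3 courses found below, a passing rise, a lasting fall and a lasting rise. RefSeq promoter windows (GRCm38.p6), from 250 bases before to 50 after the start site, matched Klf2, Klf3, Klf4, Klf6, Klf7 and Klf13, 6 of the 8 genes. The bases upstream of the annotated start are printed 5′ to 3′ on the gene's strand, from chr8:72318812-72319032 (plus strand) for Klf2, chr4:55532476-55532725 (minus strand) for Klf4 and chr13:5861239-5861481 (plus strand) for Klf6. Capitals mark a MEF2 site in Klf2 and the E-box CACGTG in Klf4 and Klf6.
Klf2: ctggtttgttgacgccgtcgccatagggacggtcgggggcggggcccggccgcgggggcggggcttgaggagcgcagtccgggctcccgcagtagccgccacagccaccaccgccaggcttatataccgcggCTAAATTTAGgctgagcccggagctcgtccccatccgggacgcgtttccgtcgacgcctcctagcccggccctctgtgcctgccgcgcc
Klf4: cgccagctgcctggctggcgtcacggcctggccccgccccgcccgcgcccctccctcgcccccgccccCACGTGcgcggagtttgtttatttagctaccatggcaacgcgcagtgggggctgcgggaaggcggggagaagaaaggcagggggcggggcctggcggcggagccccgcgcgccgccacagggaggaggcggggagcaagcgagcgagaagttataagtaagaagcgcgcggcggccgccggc
Klf6: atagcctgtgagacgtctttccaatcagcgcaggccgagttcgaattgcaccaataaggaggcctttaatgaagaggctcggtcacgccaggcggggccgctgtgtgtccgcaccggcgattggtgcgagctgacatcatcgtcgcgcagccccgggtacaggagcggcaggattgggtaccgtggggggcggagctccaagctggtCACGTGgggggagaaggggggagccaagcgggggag
In GENCODE M21 (GRCm38, mm10), the members on the plus strand were Klf2 at chr8:72319033-72321656, Klf3 at chr5:64803388-64832901, Klf6 at chr13:5861482-5870394 and Myc at chr15:61985391-61990374. Those on the minus strand were Klf4 at chr4:55527143-55532466, Klf7 at chr1:64029447-64122282, Klf10 at chr15:38291463-38300706 and Klf13 at chr7:63886351-63938915. MEF2 factors, activated by the kinase ERK5, are known to switch on KLF2 and KLF4 in endothelium. On both strands, a MEF2 site was found in 183 of 32851 promoter windows (0.557%), and among the 6 windows it was found in Klf2 alone, 1 match. The E-box CACGTG, the element that MYC and MAX bind, was present in 7.15% of all windows and had 1 match each in Klf4 and Klf6. CACCC, the core of the Krüppel-like factor element, was in 57.5% of all windows, with 5 matches in Klf3, 3 in Klf7, 1 each in Klf2 and Klf13, and 0 in Klf4 and Klf6. GGGCGG, the GC box, was in 35.7% of all windows and had 6 matches in Klf3, 4 in Klf4, 3 in Klf13, 2 in Klf2 and 1 each in Klf6 and Klf7. None of the 6 windows held the letters of a kB site (4.51% of all windows), TGANTCA (AP-1, 7.81%), TGACGTCA (CRE, 1.79%), a CArG box (1.63%) or TATAAA (13.6%). These matches describe letters only.

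The totals of the 16 libraries were nearly equal, from 6702930 to 6702932 counts, although depth before any scaling or sampling to this total is unknown. Counts are printed unscaled, and equal totals alone do not make them directly comparable. TMM scaling factors were 1.10 in untreated footprints and 0.909 at 90 min, and 1.05 and 0.963 in input. Ratios of printed counts at 90 min to untreated are therefore lower than the scaled ratios. Ratios and fits used TMM scaling, and every interval is an exact 95% interval that covers counting error only. The 8 macrophage markers summed to between 27071 and 40780 footprint counts and between 19311 and 30014 input counts per library, while the 2 lymphocyte markers in the table reached at most 6 footprint and 5 input counts, and those of fibroblasts (1 gene) and epithelium (2 genes) at most 5 counts in any library. The 3 endothelial markers summed to at most 11 counts per library, and 4 osteoclast markers to between 83 and 297. Of the 29-base windows of the members' coding sequences, 95.4% in Klf4 and 100% in each of the other 7 genes occurred in no transcript of another gene in GENCODE M21. Antisense or noncoding genes overlap exons of Klf3 and Klf7, and since no source used here gives the strand used in counting, their reads cannot be told apart from those of the 2 genes. In these bulk lysates, fewer cells with a transcript and less of it per cell cannot be told apart.

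Over 0 to 90 min, 7 of the 8 genes changed in both materials (edgeR's quasi-likelihood test of a quadratic time course, Benjamini-Hochberg adjusted over 9529 genes at 0.05). The test has no direction, and genes are placed as higher or lower by the sign of the largest fitted excursion. For these 7 genes that sign was the same in both materials. Klf6, Klf7 and Myc rose, 3 of 8 genes, where 12.2% of all genes tested rose in footprints and 14.9% in input. Klf2, Klf3, Klf4 and Klf10 were called as lower, 4 of 8, where 8.3% of all genes were lower in footprints and 11.3% in input. Of these, Klf2 rose before it fell, and its placing depended on single libraries and, in input, on the curve. Klf13 was not called. The 8 genes were chosen with earlier results of these data known, so their shares beside those of all genes are a description only. The median fitted change of the 8 genes was -0.94 in footprints and -0.89 in input, beside -0.07 and -0.04 over all genes tested, and it joins genes that moved in opposite directions. Sizes of change are log2 values with a standard error, read where the fitted curve lies farthest from its untreated value. Scaling by total counts moved the median of all genes to -0.32 in footprints and -0.17 in input, and ended none of these calls. Over all genes it called 738 higher and 2610 lower in footprints, in place of 1160 and 791, and 988 higher and 1866 lower in input, in place of 1419 and 1074.

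**Figure D1:**
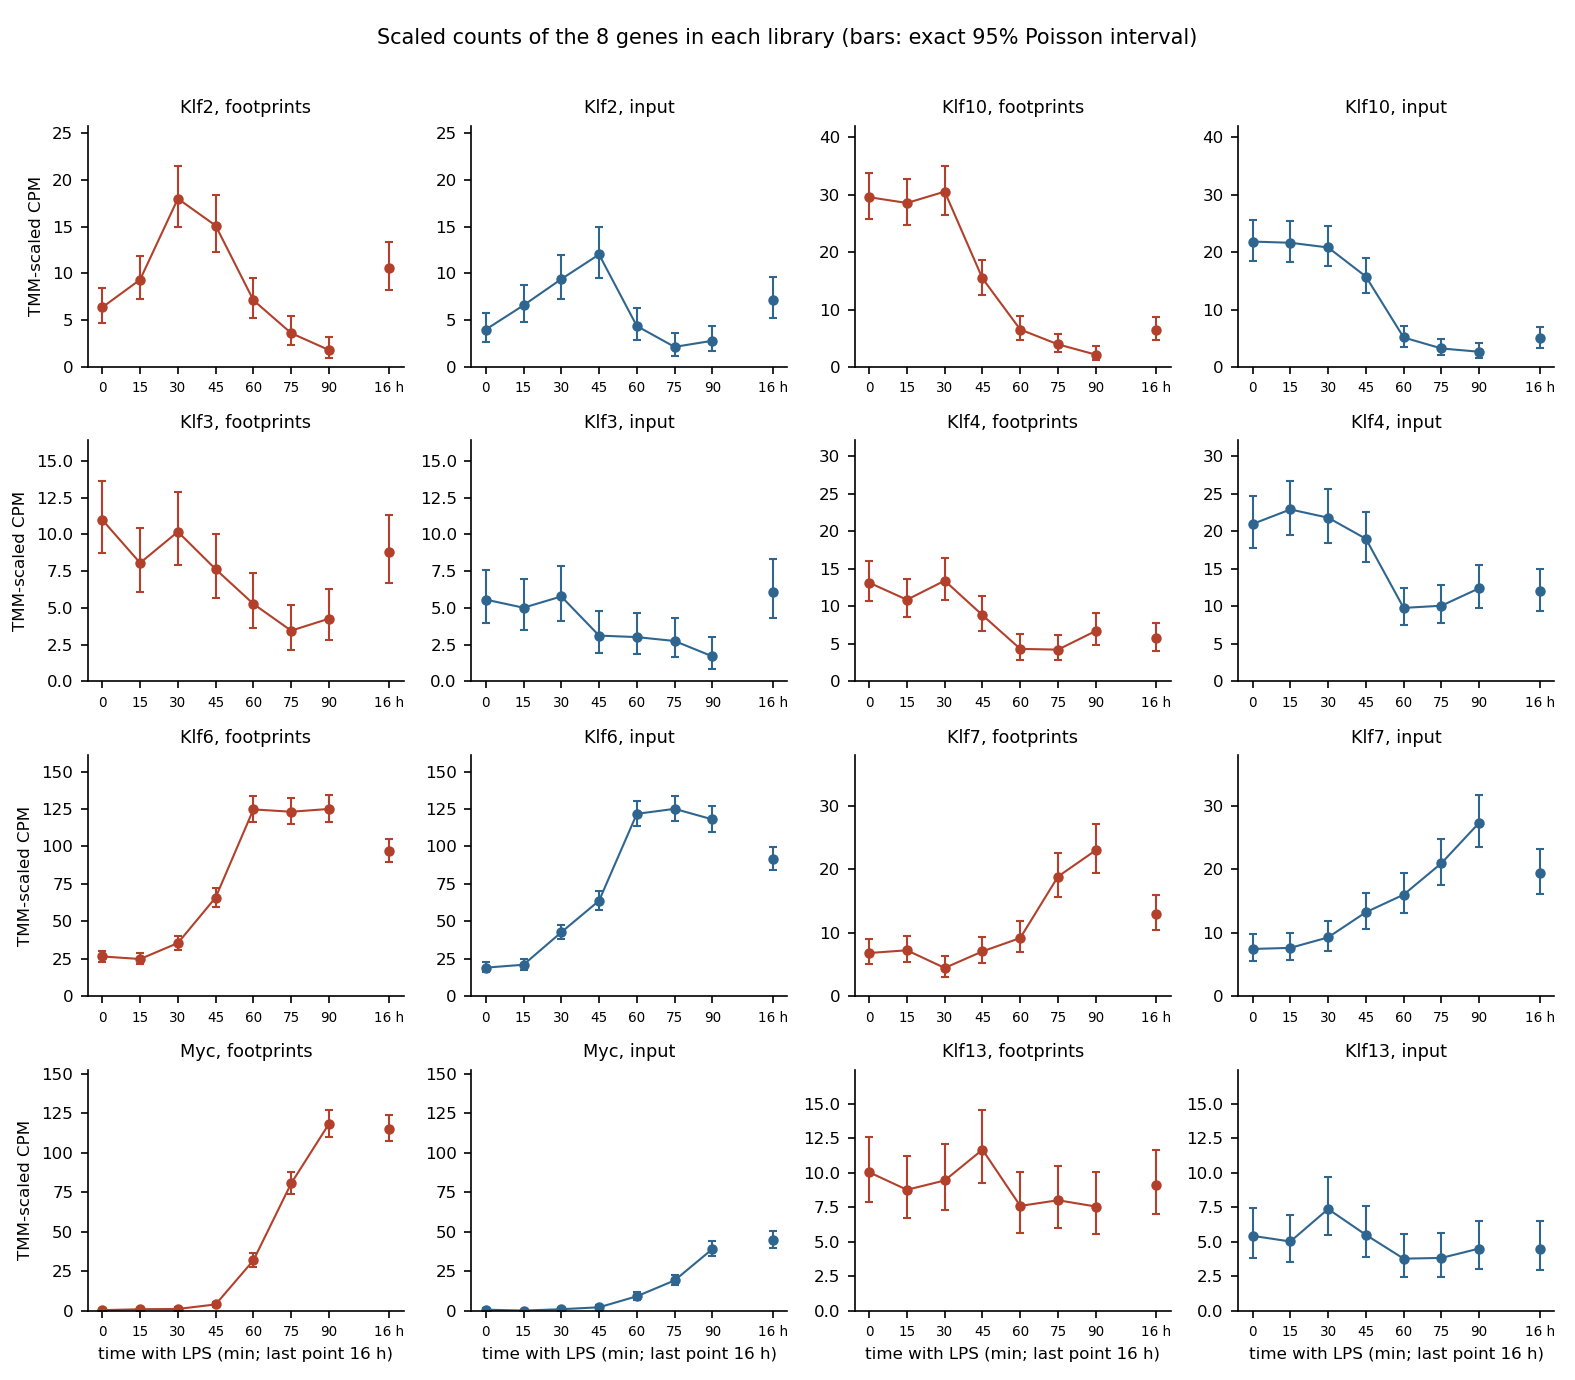
TMM-scaled CPM (counts scaled to a common library size) of the 8 genes in each library, footprints (red) left of input (blue) for each gene, against time with LPS in minutes, with 16 h as the detached last point. Bars are exact 95% Poisson intervals of 1 library. Klf2 peaked at 30 min in footprints and 45 min in input, Klf10 was lowest at 90 min, Klf6 levelled off from 60 min and Myc appeared from 45 min onwards.

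Klf2, the factor known for keeping endothelial cells and T cells quiescent, rose and then fell within 90 min. Its footprint libraries held 47, 66, 122, 101, 46, 23 and 11 counts from 0 to 90 min in steps of 15 min, and 72 at 16 h. Its input libraries held 28, 46, 65, 81, 29, 14 and 18 counts, and 45 at 16 h. The counts at 30 and 45 min were the highest of the course in both materials, and those at 75 and 90 min were below the untreated library. At its peak, Klf2 stood 2.82-fold above untreated in footprints at 30 min (interval 2.00 to 4.04) and 3.01-fold in input at 45 min (1.94 to 4.81). At 90 min, footprints were 3.53-fold below untreated (1.80 to 7.55), whereas input was 1.43-fold below with an interval that includes no change (0.764 to 2.75). The steepest step between neighbouring libraries ran from 45 to 60 min, 2.12-fold down in footprints (1.48 to 3.07) and 2.75-fold down in input (1.78 to 4.36).

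The fitted Klf2 curve had its highest point at 1.32 and its lowest at -2.26 ± 0.38 relative to untreated in footprints (adjusted p = 0.000200), and at 1.11 and -1.39 ± 0.54 in input (adjusted p = 0.0143). A straight line in time, which cannot turn, gave no call (adjusted p = 0.254 in footprints and 0.363 in input), nor did the square root of time (0.669 and 0.767). Which side was larger depended on single libraries. Without the 90 min library the largest excursion was 1.48 in footprints and 1.57 in input, both above untreated, and in input it was also above without 60 min (1.33) or 75 min (1.15). At 16 h, Klf2 did not pass the test against untreated (0.80 ± 0.33, adjusted p = 0.0644 in footprints and 0.77 ± 0.52, adjusted p = 0.231 in input), and this difference depended on single libraries. Without the untreated library, which leaves 15 min as the baseline, it was -0.034 in footprints and -0.048 in input, whereas the footprint value passed the test without the 30, 60 or 90 min library (adjusted p = 0.0380, 0.0452 and 0.0344) and with a cubic curve (0.0388). Over all 15 alternatives the footprint difference ranged from -0.42 to 0.92, and its sign turned in 3. The input difference ranged from -0.19 to 1.09, and its sign turned in 2.

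Klf10, first described as a TGF-beta inducible early gene and known as a repressor that recruits SIN3, had the deepest fall of the 8 genes. Its footprint counts were 218, 202, 207, 103, 42, 25 and 13 from 0 to 90 min, and 44 at 16 h. Its input counts were 153, 151, 144, 106, 34, 21 and 17, and 31 at 16 h. The libraries up to 30 min lay close together, and every library from 60 min onwards was below all of them. At 90 min, Klf10 was 13.9-fold below untreated in footprints (7.93 to 26.4) and 8.27-fold below in input (5.00 to 14.6). The fitted change was -4.40 ± 0.32 in footprints (adjusted p = 1.14e-05), the fifth lowest of 9529 genes, and -3.75 ± 0.35 in input (adjusted p = 7.64e-05), the sixth lowest. At 16 h it was still below untreated, by -2.23 ± 0.32 in footprints (adjusted p = 0.000120) and -2.17 ± 0.37 in input (adjusted p = 0.000504).

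Klf3, a repressor that works with the CtBP corepressors, and Klf4, known in macrophages for its part in alternative activation, fell more modestly. Klf3 had 81, 57, 69, 51, 34, 22 and 26 footprint counts from 0 to 90 min and 60 at 16 h. In input it had 39, 35, 40, 21, 20, 18 and 11 counts, and 38 at 16 h, so that the lowest counts lay at 75 and 90 min and the 16 h library was back near untreated. Klf3 changed by -1.60 ± 0.31 in footprints (adjusted p = 0.00874) and by -1.67 ± 0.34 in input (adjusted p = 0.0110). The input call was lost without the 90 min library (adjusted p = 0.0980), with DESeq2 (0.0658) and with the square root of time (0.0514).

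Klf4 had 97, 77, 91, 59, 28, 27 and 41 footprint counts from 0 to 90 min and 39 at 16 h. Its input counts were 147, 160, 151, 128, 65, 66 and 80, and 75 at 16 h. All libraries from 60 min to 16 h lay below all libraries up to 45 min in both materials. Klf4 changed by -1.50 ± 0.38 in footprints (adjusted p = 0.0364) and by -1.23 ± 0.28 in input (adjusted p = 0.0213), and at 16 h it was lower by -1.30 ± 0.44 (adjusted p = 0.0270) and -0.96 ± 0.33 (adjusted p = 0.0284). The footprint call over 0 to 90 min was lost without the library of 0, 15, 45 or 75 min (adjusted p from 0.0603 to 0.122), and the input call without that of 15 or 75 min (0.0673 and 0.0856). The square root of time ended both (0.0818 and 0.0773), and at 16 h the input call was lost without the 15 min library (0.0571) and with the square root of time (0.0502).

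Klf6, known as a coactivator of NF-kB in macrophages, had the most footprints per coding kilobase of all Krüppel-like factors at every time point and rose further. Its footprint counts were 195, 175, 240, 440, 805, 785 and 762 from 0 to 90 min, and 661 at 16 h. Its input counts were 133, 146, 295, 429, 808, 819 and 761, and 573 at 16 h. The counts at 60, 75 and 90 min formed a plateau above all earlier libraries, and the 16 h library lay between the 45 and 60 min libraries in both materials. At 30 min, input had reached 2.25-fold of untreated (1.82 to 2.78) and footprints 1.34-fold (1.10 to 1.63). At 90 min the ratios to untreated were 4.73 in footprints (4.04 to 5.56) and 6.22 in input (5.17 to 7.54). Scaled by total counts, the log2 ratio in footprints was 1.97 in place of 2.24. The fitted change was 2.84 ± 0.30 in footprints (adjusted p = 0.000158) and 3.19 ± 0.25 in input (adjusted p = 1.95e-05). At 16 h it was 2.27 ± 0.34 in footprints (adjusted p = 0.000182) and 2.67 ± 0.29 in input (adjusted p = 1.45e-05).

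Klf7, an activator known mostly from neurons, also rose in both materials. Its footprint counts were 50, 51, 30, 47, 59, 120 and 140 from 0 to 90 min, and 88 at 16 h. Its input counts were 52, 53, 64, 89, 106, 137 and 176, and 121 at 16 h. The first library whose interval against untreated excluded no change was 45 min in input (1.78-fold, 1.25 to 2.56) and 75 min in footprints (2.78-fold, 1.98 to 3.94), but these intervals cover counting error only and the test of footprints over input did not call a difference in course (adjusted p = 0.588). The fitted change was 1.93 ± 0.27 in footprints (adjusted p = 0.000371) and 2.00 ± 0.17 in input (adjusted p = 2.52e-05), and the footprint call was lost with the square root of time (0.0832). At 16 h it was 0.93 ± 0.33 in footprints (adjusted p = 0.0345), and 1.48 ± 0.20 in input (adjusted p = 8.65e-05). The footprint call at 16 h was lost with DESeq2 (adjusted p = 0.0834), with scaling by total counts (0.0582), with a cubic curve (0.0526) and with the square root of time (0.0806).

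Klf13, a factor named in T lymphocytes for its action on the chemokine gene Ccl5, showed no called change. Its footprint counts were 74, 62, 64, 78, 49, 51 and 46 from 0 to 90 min, and 62 at 16 h. Its input counts were 38, 35, 51, 37, 25, 25 and 29, and 28 at 16 h. The 3 libraries from 60 to 90 min lay below the 4 earlier ones in both materials, and no library's interval against untreated excluded no change. The fitted change was -0.39 ± 0.25 in footprints (adjusted p = 0.435) and -0.56 ± 0.34 in input (adjusted p = 0.393).

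**Figure D2:**
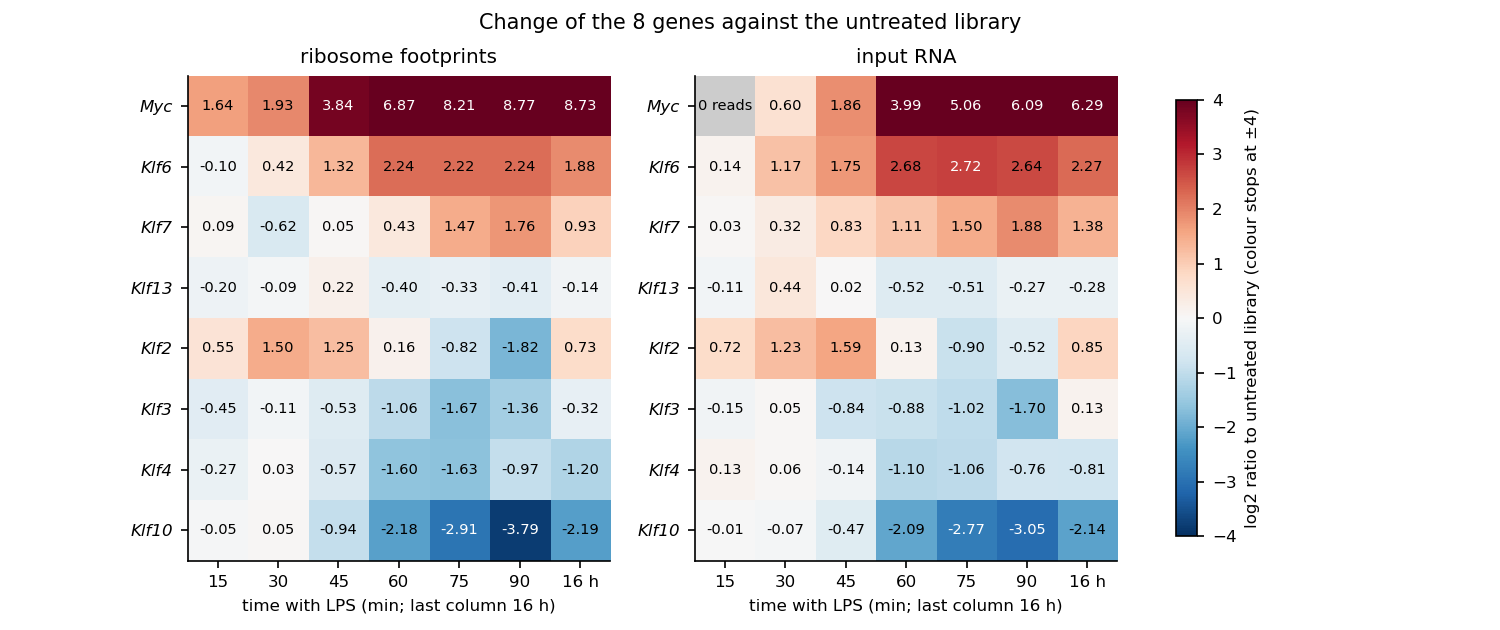
Log2 ratio of each LPS library to the untreated library of its material for the 8 genes, footprints left and input right, with time in minutes along the bottom, 16 h last, and the values written in the cells. Colour stops at ±4, so the Myc values up to 8.77 are darker than the scale can show, and the grey cell had 0 counts.

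Myc had 2 footprint and 4 input counts in untreated cells and had the largest rise of the 8 genes. Its footprint counts were 2, 6, 7, 26, 205, 513 and 720 from 0 to 90 min, and 784 at 16 h. Its input counts were 4, 0, 6, 14, 60, 125 and 251, and 279 at 16 h. Every library from 45 min onwards was above every earlier one in both materials, and the 90 min and 16 h libraries were close to each other. At 90 min the ratio to untreated was 436 in footprints (120 to 3605) and 68.2 in input (26.3 to 252), the wide intervals coming from the 2 and 4 untreated counts. The step from 45 to 60 min was 8.16-fold in footprints (5.41 to 12.8) and 4.35-fold in input (2.40 to 8.43). Both courses passed the test, with adjusted p = 5.69e-07 in footprints and 3.09e-06 in input. Myc passed the filter on low values only through its libraries from 45 min onwards, where it was high. All its earlier libraries held under 10 counts, so the filter itself favoured a call of a rise, here and at 16 h. The fitted changes (12.34 in footprints and 8.20 in input) exceed the observed log2 ratios (8.77 and 6.09) and rest on a fitted untreated value near 0 counts, so the ratios describe the size better.

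At 16 h against untreated, Klf6, Klf7 and Myc were higher in both materials, 3 of 8, where 25.9% of all genes were higher in footprints and 28.6% in input. Klf4 and Klf10 were lower, 2 of 8, where 24.2% were lower in footprints and 27% in input. These shares are near the background. In this test the lone 16 h library is assumed to vary about its mean as the others do about the curve. Myc stood 425-fold above untreated in footprints (117 to 3513) and 78.1-fold in input (30.2 to 289), adjusted p = 1.49e-07 and 5.77e-07. Klf3 and Klf13 did not pass (adjusted p from 0.475 to 0.853).

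The 16 h libraries were also set against the fitted value at 90 min, a comparison added after the courses had been seen. Klf2, Klf3 and Klf10 were higher at 16 h than at 90 min, 3 of 8, where 25.6% of all genes were higher in footprints and 26.6% in input. For Klf2 the difference was 3.06 ± 0.43 in footprints (adjusted p = 0.000113) and 2.16 ± 0.61 in input (adjusted p = 0.0114), for 72 and 45 counts at 16 h against 11 and 18 at 90 min. Klf3 was higher by 1.32 ± 0.37 (adjusted p = 0.0101) and 1.78 ± 0.39 (adjusted p = 0.00284), and Klf10 by 2.17 ± 0.48 (adjusted p = 0.00278) and 1.58 ± 0.55 (adjusted p = 0.0323). Klf7 was lower, 1 of 8, where 25% of all genes were lower in footprints and 25.8% in input. Its counts at 16 h were 1.78-fold below those at 90 min in footprints (1.35 to 2.35, adjusted p of the fit 0.0132) and 1.41-fold below in input (1.11 to 1.80, adjusted p 0.0235). Klf4, Klf6, Klf13 and Myc did not pass in either material.

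These late differences rest on the shape of the curve and on single libraries. With a straight line in time, 1 gene was called in footprints and 2 in input, in place of 4 each. With the square root of time, 0 and 1 were called. In input the Klf10 call was lost without the library of 0 min (adjusted p = 0.0547), 75 min (0.0919) or 90 min (0.125) and with a cubic curve (0.0863), and the Klf7 call without that of 75 min (0.0513) or 90 min (0.523) and with DESeq2 (0.186). Without the 90 min library, which leaves 75 min as the last point, Klf7 also lost its footprint call (0.117), whereas input calls were gained by Myc (1.11, adjusted p = 0.0107) and, without 60 or 90 min, by Klf6 (-0.51 and -0.63, adjusted p = 0.0489 and 0.0393).

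Ribosome density, the ratio of scaled footprints to scaled input, equals 1 for a typical gene. The sources used here do not give which features were counted, so a gene's level may reflect more than its ribosome load. Averaged over the 8 time points with the time point as a block, 6 of the 8 genes had more footprints per input than the typical gene, where 43.7% of all genes did, and Klf4 and Klf7 had fewer, 2 of 8, where 41.5% did. Myc stood highest at 1.85 ± 0.12 in log2 units (adjusted p = 9.68e-11), the 79th of 9529 genes. Klf13 (1.07 ± 0.11), Klf3 (1.05 ± 0.12), Klf2 (0.78 ± 0.12) and Klf10 (0.56 ± 0.09) followed, with adjusted p of 2.25e-05 or less. The Myc value rests mostly on its libraries from 60 min to 16 h, since those up to 30 min held at most 7 counts. It does not describe untreated cells, where the Myc ratio was 0.547 with an interval from 0.0495 to 3.81. Klf6 (0.28 ± 0.06, adjusted p = 0.000190) lost its call with scaling by total counts (0.059, adjusted p = 0.419). Klf4 was at -0.73 ± 0.09 (adjusted p = 7.21e-07) and Klf7 at -0.24 ± 0.11 (adjusted p = 0.0471), and the Klf7 call was lost without the 30, 45 or 60 min libraries (-0.19, -0.19 and -0.20), with DESeq2 (adjusted p = 0.0503) and with no filter on low counts (0.0734).

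**Figure D3:**
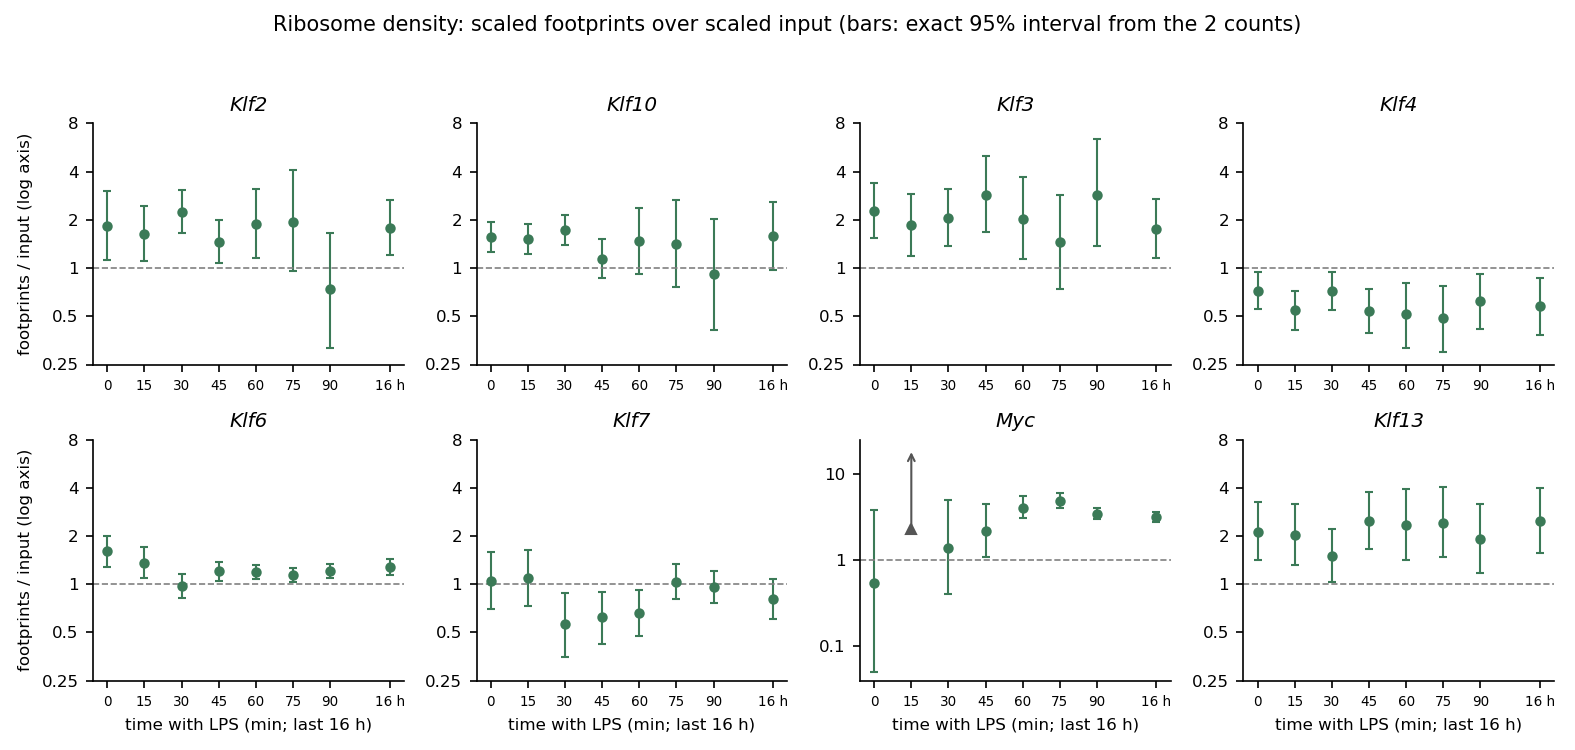
Ratio of scaled footprints to scaled input for the 8 genes at each time point on a log axis, with exact 95% intervals from both counts. The dashed line at 1 is the typical gene, and the triangle with an arrow is a lower bound at a time point with 0 Myc input counts. Klf4 lies below 1 and Klf13 above 1 at all 8 time points.

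No change of density with time was called for any of the 8 genes. Over 0 to 90 min the test called 0 of 8, where 1.11% of all genes were called higher and 0.136% lower, and at 16 h it called 0 of 8, where 0.304% were higher and 0.0944% lower. No member had an unadjusted p under 0.05 in either comparison with edgeR. DESeq2 also called 0 of 8 at 16 h, but over 0 to 90 min it gave an adjusted p for Klf6 and Myc alone, neither of them called. With scatter taken from footprint libraries alone, simulated density changes of 1 log2 unit over 0 to 90 min were recovered for 30% of 50 genes. Those of 2 log2 units were recovered for 78% of 50, so smaller changes would often be missed. Klf7 had ratios of 0.562, 0.620 and 0.663 at 30, 45 and 60 min, each with an interval below 1, and of 1.05 and 1.10 before and 1.04 and 0.962 after. Its fitted excursion was -0.70 ± 0.34 (adjusted p = 0.588). Klf6 stood at 0.975 at 30 min (0.819 to 1.16), against 1.60 in untreated cells (1.28 to 2.01), with a fitted excursion of -0.45 ± 0.19 (adjusted p = 0.630). Myc had ratios of 4.07, 4.86, 3.47 and 3.13 from 60 min to 16 h, with intervals that start at 2.73 or higher, whereas the untreated ratio of 0.547 rested on 2 and 4 counts (0.0495 to 3.81). The fitted Myc change over 0 to 90 min was the sixth highest of 9529 and did not pass (adjusted p = 0.639).

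**Figure D4:**
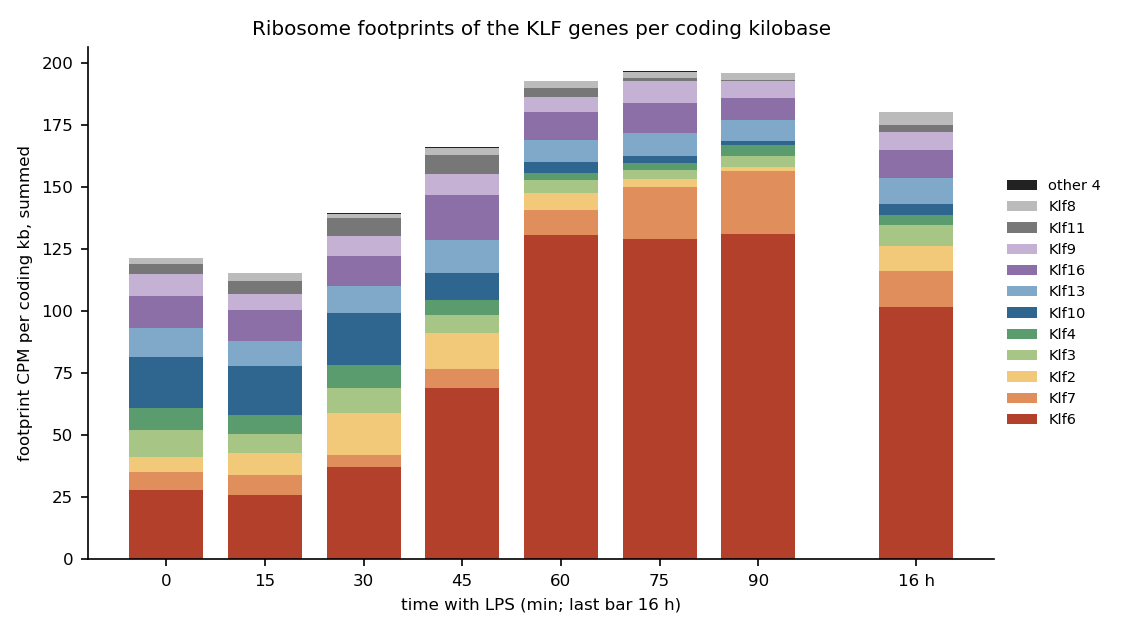
Footprint CPM per coding kilobase for the 15 Krüppel-like factor genes in the table with an annotated coding sequence, stacked at each time point. The red Klf6 part makes up 66.8% of the sum at 90 min, against 22.8% in untreated cells, and the dark blue Klf10 part is 0.757%, against 16.9%.

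The mix of Krüppel-like factor footprints differed between time points. Scaled to CPM per coding kilobase, so that genes of different length can be set side by side, footprints over all 15 Krüppel-like factor genes summed to 196 at 90 min, 180 at 16 h and 121 in untreated cells. At 90 min Klf6 stood at 131 and Klf7 at 25.5, and the next gene, Klf16, at 8.72. In untreated cells the order of levels was Klf6 (27.7), Klf10 (20.6), Klf16 (13.2), Klf13 (11.6), Klf3 (10.6), Klf4 (9.08), Klf9 (8.71) and Klf7 (7.51), with Klf2 next, at 4.94% of the sum. Klf2 took 12.2% of the sum at 30 min, when only Klf6 and Klf10 were above it, and 0.867% at 90 min. At 16 h Klf6 held 56.5%, Klf7 7.94%, Klf2 5.53% and Klf10 2.50%.

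Among the 10 other Krüppel-like factor genes listed, 8 were in the table and 4 were tested. Of these, 1 was called as lower over 0 to 90 min in both materials and 0 as higher. Over all genes 8.3% were lower and 12.2% higher in footprints, and 11.3% and 14.9% in input. Klf11, the close relative of Klf10 known as TIEG2, had 45, 56, 73, 77, 35, 11 and 4 footprint counts from 0 to 90 min and 28 at 16 h, a passing rise before a fall. Klf11 changed by -3.16 ± 0.40 in footprints (adjusted p = 0.000110) and -2.20 ± 0.43 in input (adjusted p = 0.00216). Klf8 was higher at 16 h in input (1.10 ± 0.34, adjusted p = 0.0185), 1 of 4, where 28.6% of all genes were higher. It did not pass in footprints (0.99 ± 0.40, adjusted p = 0.0588). Of the related SP factors, 4 of 9 were tested, and over 0 to 90 min 1 rose and 1 fell in each material, beside the same shares of all genes. Sp3 fell in both materials (-0.66 ± 0.16 and -0.32 ± 0.08, adjusted p = 0.0307 and 0.0108). Sp2 rose in footprints (0.55 ± 0.16, adjusted p = 0.0425) and Sp1 rose in input (0.48 ± 0.08, adjusted p = 0.00307).

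Of 12 genes of the MAX network, to which the partners of MYC belong, 10 were tested. Over 0 to 90 min 0 rose and 2 fell in footprints, where 12.2% of all genes rose and 8.3% fell, and 1 rose and 2 fell in input, where 14.9% rose and 11.3% fell. The 2 that fell in input were Mycn (-0.25 ± 0.07, adjusted p = 0.0496) and Mxd3 (-1.17 ± 0.28, adjusted p = 0.0256). At 16 h 3 were higher and 2 lower in footprints, where 25.9% of all genes were higher and 24.2% lower, and 2 higher and 4 lower in input, where 28.6% were higher and 27% lower, so the counts at 16 h are near the background. Mycn, the paralogue of Myc, was abundant in untreated cells, with 6650 footprint and 3952 input counts, held 5300 and 3121 counts at 90 min, and had 1839 and 1105 at 16 h, a change of -1.78 ± 0.11 (adjusted p = 1.98e-07) and -1.69 ± 0.09 (adjusted p = 3.98e-08). Mxd1, a MYC antagonist that competes for MAX, had 354 footprint and 269 input counts at 16 h, against 29 and 14 in untreated cells (3.73 ± 0.26 and 4.14 ± 0.31, adjusted p = 3.86e-07 and 7.17e-07). Mxd3, of the same antagonist family, had 2 and 6 counts at 16 h, against 41 and 46 (adjusted p = 0.000648 and 0.000350). Mxi1 was higher in footprints (0.56 ± 0.18, adjusted p = 0.0239) and lower in input (-0.44 ± 0.14, adjusted p = 0.0189), and it was the 1 gene of the network whose density was called at 16 h (1.09 ± 0.23, adjusted p = 0.0432). Max itself had 459 footprint counts at 90 min, 534 at 16 h and 516 in untreated cells.

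Per coding kilobase, footprints of Mycn exceeded those of Myc at every time point, by 7.23-fold at 90 min and 2.31-fold at 16 h. Myc made up 12.1% of the 2 genes' footprints per coding kilobase at 90 min, 30.3% at 16 h and 0.0306% in untreated cells.

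**Figure D5:**
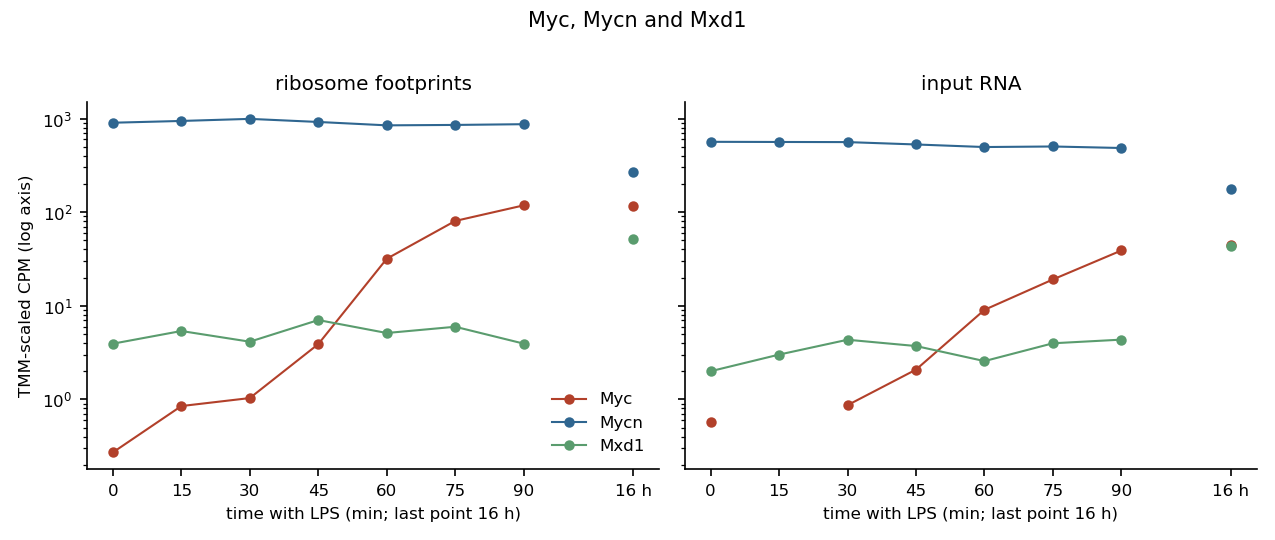
TMM-scaled CPM of Myc, Mycn and Mxd1 on a log axis against time with LPS, footprints left and input right, 1 point per library, with 16 h detached. Myc climbs from 45 min onwards, Mycn is lower and Mxd1 higher in the 16 h library, and the 15 min input library has no Myc point because it held 0 counts.

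The 20 listed MYC target genes, most of them for ribosome production, nucleotide and polyamine synthesis, were all tested. The list was chosen with earlier results of these data known, so its shares are a description only. Most of its genes had counts far above the filter, where small changes are called more readily than in genes near it. Over 0 to 90 min 10 rose and 0 fell in footprints, where 12.2% of all genes rose and 8.3% fell, and 13 rose and 0 fell in input, where 14.9% rose and 11.3% fell. The median change was 0.29 in footprints and 0.41 in input, beside -0.07 and -0.04 over all genes. Scaling by total counts, which moved the footprint median of all genes to -0.32, was not examined for this list. At 16 h 2 were higher and 13 lower in footprints, where 25.9% of all genes were higher and 24.2% lower. In input 3 were higher and 14 lower, where 28.6% were higher and 27% lower. A link of these changes to the level of Myc or Mycn was not tested. The median was -0.48 in footprints and -0.47 in input, beside 0.00 and 0.01 over all genes. Odc1, the rate-limiting enzyme of polyamine synthesis, rose by 1.44 ± 0.15 in footprints over 0 to 90 min (adjusted p = 2.43e-05) and stood 3.61 ± 0.17 above untreated at 16 h (adjusted p = 2.12e-08). Nop58, a box C/D snoRNP protein, had 6504 footprint counts at 90 min, 2267 at 16 h and 4035 in untreated cells. Gnl3 and Polr1b, for a nucleolar GTPase and a subunit of RNA polymerase I, likewise rose over 0 to 90 min and were lower than untreated at 16 h in both materials.

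Of 12 genes for cofactors and ubiquitin ligases of Krüppel-like factors, all tested, 0 were called over 0 to 90 min in footprints. Over all genes 12.2% rose and 8.3% fell there. In input 2 rose and 0 fell, where 14.9% of all genes rose and 11.3% fell. They were Kat2b (0.73 ± 0.12, adjusted p = 0.00351) and Crebbp (0.77 ± 0.13, adjusted p = 0.00431), both acetyltransferases. Crebbp was the 1 gene of the list called in density over 0 to 90 min (-0.64 ± 0.13, adjusted p = 0.0489). Like all such density calls, it was lost without the untreated libraries. At 16 h 2 were higher and 3 lower in each material, shares near or below those over all genes (25.9% higher and 24.2% lower in footprints, 28.6% and 27% in input), among them Fhl3 (0.96 ± 0.12 in footprints, adjusted p = 4.98e-05) and Hdac2 (-0.78 ± 0.11, adjusted p = 0.000152). Of the 5 genes of the ERK5 and MEF2 route to Klf2 and Klf4, 1 rose in footprints over 0 to 90 min, where 12.2% of all genes rose. This was Mef2d (0.60 ± 0.15, adjusted p = 0.0345), and 0 were called in input. At 16 h 2 were higher and 2 lower in footprints, where 25.9% of all genes were higher and 24.2% lower. Mapk7, which encodes ERK5, was higher (0.75 ± 0.22, adjusted p = 0.0144), as was Mef2d (0.64 ± 0.17, adjusted p = 0.00825). Mef2c was lower (-1.05 ± 0.12, adjusted p = 2.35e-05), as was Map2k5 (-0.57 ± 0.17, adjusted p = 0.0152). In input 1 was higher and 2 lower, where 28.6% were higher and 27% lower, and Mef2d did not pass (0.15 ± 0.22, adjusted p = 0.594).

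Of 12 genes reported elsewhere as targets of Krüppel-like factors, 10 were in the table and 7 were tested. Over 0 to 90 min 4 rose and 2 fell in footprints, where 12.2% of all genes rose and 8.3% fell. In input 4 rose and 3 fell, where 14.9% rose and 11.3% fell. This list too was chosen with earlier results known, so its shares are a description only. S1pr1, the sphingosine 1-phosphate receptor that KLF2 drives in T cells, had 1 footprint and 10 input counts at 90 min, against 36 and 45 in untreated cells (-3.31 ± 0.55 and -2.67 ± 0.50, adjusted p = 0.00350 and 0.00671). Cdkn1a, the cell cycle inhibitor p21, rose by 2.88 ± 0.17 in footprints (adjusted p = 2.60e-06). Zc3h12a, the RNase Regnase-1, had 496 footprint counts at 90 min, against 10 in untreated cells, and was the 1 gene of the list whose density was called, higher by 2.42 ± 0.47 over 0 to 90 min (adjusted p = 0.0265). That density call over 0 to 90 min was lost without the untreated libraries, as were those of all other genes.

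As a description, the courses of the 8 genes over the 16 libraries, centred within each material, fell into opposed groups. Pearson's r was 0.89 between Klf6 and Myc, 0.91 between Klf7 and Myc and 0.85 between Klf6 and Klf7. Klf10 opposed all of them, at -0.95 with Myc, -0.94 with Klf7 and -0.92 with Klf6, and followed Klf4 (0.89). The genes outside the 8 with the most similar courses were Dusp4, Plaur and Il1b for Myc (r of 0.98 to 0.99), Traf1, Birc3 and Mdm2 for Klf6 (0.98 to 0.99), and Vgll4, Rin2 and Fam212a for Klf10 (0.97 to 0.98). For Klf7 they were Cdc42ep4, Tmem248 and Adam17 (0.95), for Klf3 Tmem206, Pla2g15 and AC149090.1 (0.93 to 0.95), and for Klf4 Smg9, Cdc42ep3 and Anks3 (0.91 to 0.94). For Klf2 they were Crebrf, Klf11 and Gltscr1 (0.91), and for Klf13 Atxn7l1, Rab40c and Hs6st1 (0.82 to 0.84). The points share libraries and lysates, and no test was made.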

How the data were processed

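Footprints and input of RAW264.7 cells came from the same lysate at each time point; per the labels' protocols, cells were treated with cycloheximide, ribosomes were isolated after RNase I digestion, and rRNA was depleted. The authors deposited whole-number counts per gene; mm10, Bowtie 0.12.8 and DESeq2 1.18.1 are named in the submitters' processing notes, and no source used here gives the counting method. The second deposited unit, a signal that is the counts divided by a size factor per library per the file headers, was not used in tests. No molecular identifiers are stated. Counts were fitted per material with edgeR 4.0.16 (R 4.3.3, limma 3.58.1): TMM factors, quadratic time over 0 to 90 min plus a 16 h term, glmQLFTest with Benjamini-Hochberg adjustment over 9529 genes, threshold 0.05. As groups have no replicates, scatter of libraries about the curve stands for the error, with 4 residual degrees of freedom. Density was fitted over all 16 libraries, blocked by time point. Ratios of single libraries have exact binomial (Clopper-Pearson) intervals. Tested on simulated data for 9529 genes, the fit over 0 to 90 min recovered 79% of changes of 1 log2 unit in footprints and 82% in input, and 96% and 98% of those of 2 log2 units. These changes were straight lines in time in genes drawn from all those tested, so the rates need not hold for the 8 genes. The simulated scatter was that of the footprint libraries in both materials, so input and density rates leave out the input libraries' own scatter. The alternatives were other scalings, DESeq2 1.42.0, filters, curves, and leaving out each time point. The 8 genes and the gene lists were chosen with earlier results of these data known. Listed genes are named by the number of contrasts called, at most 4 per list, and likeness is by the 3 highest Pearson correlations of log2(CPM + 1) per gene; Max was named outside the rule, after its values were seen. The values of 1 listed gene are not reported here.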

Additional observations from a re-analysis of the deposited data

How the results depend on the processing

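Over the 6 planned comparisons and mean density, median-of-ratios scaling kept all 32 calls of the 8 genes, scaling by total counts kept 30, DESeq2 kept 29 and no filter on low counts kept 31; a filter of 10 counts in every library drops Myc and kept the other 27. The calls of Klf6, Klf10 and Myc over 0 to 90 min were kept in every alternative that tested them. Over all genes, scaling by total counts moved the higher and lower calls to 2129 and 3362 at 16 h in input (2722 and 2573 with TMM), to 3025 and 1826 at 16 h against 90 min in footprints (2442 and 2385), to 94 and 48 for density over 0 to 90 min (106 and 13) and to 3070 and 4812 for mean density (4166 and 3950). With the square root of time, 4 genes were called over 0 to 90 min in footprints and 4 in input, in place of 7 each. At 16 h against 90 min the straight line gave 1 call in footprints and 2 in input, and the square root 0 and 1, with Klf10 in input at -0.18. Leaving out 1 time point gave 2 to 5 calls in input there. For Klf2, whose curve turns, the change over 0 to 90 min ranged from -3.20 to 1.48 in footprints and from -2.16 to 1.57 in input when 1 time point was left out, and it was 1.62 in input with a cubic curve. Mean density of Klf6 was 0.059 with total counts. That of Klf7 was -0.26 with DESeq2 and -0.21 with no filter, both with the call lost, and -0.30 to -0.19 when 1 time point was left out. The log2 ratio of Klf6 footprints at 90 min was 1.97 with total counts. Of the 24 genes named as most alike, 14 stayed among the first 3 with a pseudocount of 5 and 6 by Spearman's rho. Where no value is given here for why a call was lost, the cause was not tested. Each group has 1 library, so no replicates could be paired between time points. Footprints and input of a time point were paired in the density fits, where the time point served as the block. Without that block 0 of the 8 genes were called in density, as with it. Over all genes 94 were called in place of 119 over 0 to 90 min and 24 in place of 38 at 16 h. DESeq2 gave an adjusted p over 0 to 90 min in density for Klf6 and Myc alone, and it called 25 of all genes in density at 16 h in place of 38. Leaving out the untreated libraries left 0 of 9456 genes called in density over 0 to 90 min, in place of 119. Counts under 10, such as those of Myc before 45 min, limit the size of its change.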
